A study of Mus musculus with 2 samples.

Results

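Collagen chain genes were examined in fibroblasts cultured from mouse embryos, the cells that make much of connective tissue. Members were all genes on the array with a symbol of the form Col, a number, the letter a and a number, named alone by a probe set of the platform annotation. The rule gave 44 genes of 19946 measured, from 46 probe sets, and no measured value entered the choice of genes. The cells had been infected with an adenovirus carrying LacZ, in both groups alike. One culture received DMSO, the solvent, and 1 culture received 250 nM celastrol, a triterpenoid from the thunder god vine, both for 7 h in DMEM with 1% serum. Each group is 1 array of total RNA, so no value has a replicate and no test was possible. Strain, embryonic age, passage and the number of embryos behind a culture are not given in the labels. Treatment cannot be told apart from culture or array, and in bulk RNA fewer cells of a type cannot be told apart from less RNA per cell.

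Collagens are proteins of the extracellular matrix in which 3 chains wind into a triple helix built on repeats of glycine and other residues, many of them proline. Fibrillar collagens, led by type I in fibroblasts, pack into the cross-striated fibrils that carry tension. Basement membrane collagen (type IV) forms a sheet-like network under epithelia and endothelia, type VI forms beaded microfibrils around cells, and FACIT collagens (fibril-associated collagens with interrupted triple helices) sit on fibril surfaces. Before secretion, chains are hydroxylated on proline and lysine, glycosylated and folded in the endoplasmic reticulum, and outside the cell their propeptides are cut off and the fibrils are cross-linked.

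The stretches before the start sites of Col6a3, of its partner chains Col6a1 and Col6a2, and of Col1a2 are shown because the results turn on these genes. They come from RefSeq's table for GRCm38.p6, run 5′ to 3′ on the gene's strand, and end before the outermost annotated start of the gene. That table held 38 windows for 35 of the 44 genes. Capitals mark matches, on either strand, to the TATA box TATAAA, the CCAAT box (its name gives its letters), the GC box GGGCGG, the core TGACNNNGC of the antioxidant response element, or the heat shock element (GAA and TTC units in alternation, 3 in all, with any 2 bases between them).
Col6a3 (chr1:90844002-90844221, minus strand): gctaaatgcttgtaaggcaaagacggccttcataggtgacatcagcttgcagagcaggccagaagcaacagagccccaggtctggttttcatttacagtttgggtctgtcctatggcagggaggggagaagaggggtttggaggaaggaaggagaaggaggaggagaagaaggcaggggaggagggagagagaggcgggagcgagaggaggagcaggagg
Col6a1 (chr10:76726045-76726294, minus strand): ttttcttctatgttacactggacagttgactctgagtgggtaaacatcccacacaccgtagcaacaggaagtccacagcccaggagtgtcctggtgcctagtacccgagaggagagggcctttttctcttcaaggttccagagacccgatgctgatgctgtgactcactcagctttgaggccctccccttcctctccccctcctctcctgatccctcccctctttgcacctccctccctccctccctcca
Col6a2 (chr10:76623631-76623880, minus strand): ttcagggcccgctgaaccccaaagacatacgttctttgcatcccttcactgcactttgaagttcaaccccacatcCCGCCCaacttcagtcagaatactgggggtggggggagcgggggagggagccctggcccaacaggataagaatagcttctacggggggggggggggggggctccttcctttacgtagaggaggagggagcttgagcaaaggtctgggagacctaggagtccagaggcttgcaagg
Col1a2 (chr6:4505368-4505617, plus strand): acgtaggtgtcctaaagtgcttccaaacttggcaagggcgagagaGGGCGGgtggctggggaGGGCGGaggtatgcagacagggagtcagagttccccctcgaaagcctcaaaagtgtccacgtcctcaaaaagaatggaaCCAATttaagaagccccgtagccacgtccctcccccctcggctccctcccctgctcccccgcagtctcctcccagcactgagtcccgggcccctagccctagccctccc
None of the 5 motifs lay in the Col6a3 or Col6a1 stretch, which span 220 and 250 bases. The Col6a2 stretch held 1 match to the GC box, and the Col1a2 stretch held 2 matches to the GC box and 1 to the CCAAT box. The table has a further Col6a2 window at a start inside the gene, not shown, with 3 matches to the GC box and 1 to the antioxidant response core. In all 250-base windows of collagen genes, the GC box was present in 57.9%, beside 32.7% of 32851 windows of all genes. The CCAAT box was present in 34.2% beside 33.8%, the TATA box in 13.2% beside 12.4%, the antioxidant response core in 15.8% beside 10.2%, and the heat shock element in 0 of 38 collagen windows beside 0.466%. Matches of the antioxidant response core and the GC box can overlap, and a match describes letters only.

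Expression values are on the log2 scale as the authors' RMA summary gave them, and a difference is the celastrol value minus the DMSO value. The detection limit was 5.73, under which 95% of the values of 1210 olfactory and vomeronasal receptor probe sets lay, and a gene above it in either array counted as detected. Of the 44 collagen genes 43 were detected, every one of them above the limit in both arrays, so none passed through a single group. Col10a1, a collagen of hypertrophic cartilage, was the exception, at 5.65 with DMSO and 5.54 with celastrol. Most members lay close to the limit. The mean of both arrays was less than 1 above it for 16 of the 43 detected genes and less than 2 above it for 33. Differences of such dim genes may be understated, because RMA shrinks differences near background. A probe set's signal also depends on its probes, so values do not order the amounts of different mRNAs.

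Of the 43 detected collagen genes, 1 was at least 1.5-fold higher with celastrol, beside 6.19% of 13902 detected genes, and 0 were at least 1.5-fold lower, beside 4.68%. The exception was Col6a3. At the smaller threshold of 0.32 on the log2 scale, 2 genes were higher (Col6a3 and Col20a1), beside 14.8% of detected genes, and 2 were lower (Col1a1 and Col1a2), beside 16.0%. Differences of 18 of the 43 genes were smaller than 0.1 in size, and the share of all detected genes this close to 0 was not computed. The differences of the receptor probe sets show scatter within these arrays, and 95% of them lay between -0.42 and 0.41. Only Col6a3 and Col1a1 lay outside that range, 2 of 43, while 21.7% of all detected genes did, and Col1a2 lay just inside its lower end. The receptor probe sets are dim, and this range says nothing of how much cultures vary.

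**Figure D1:**
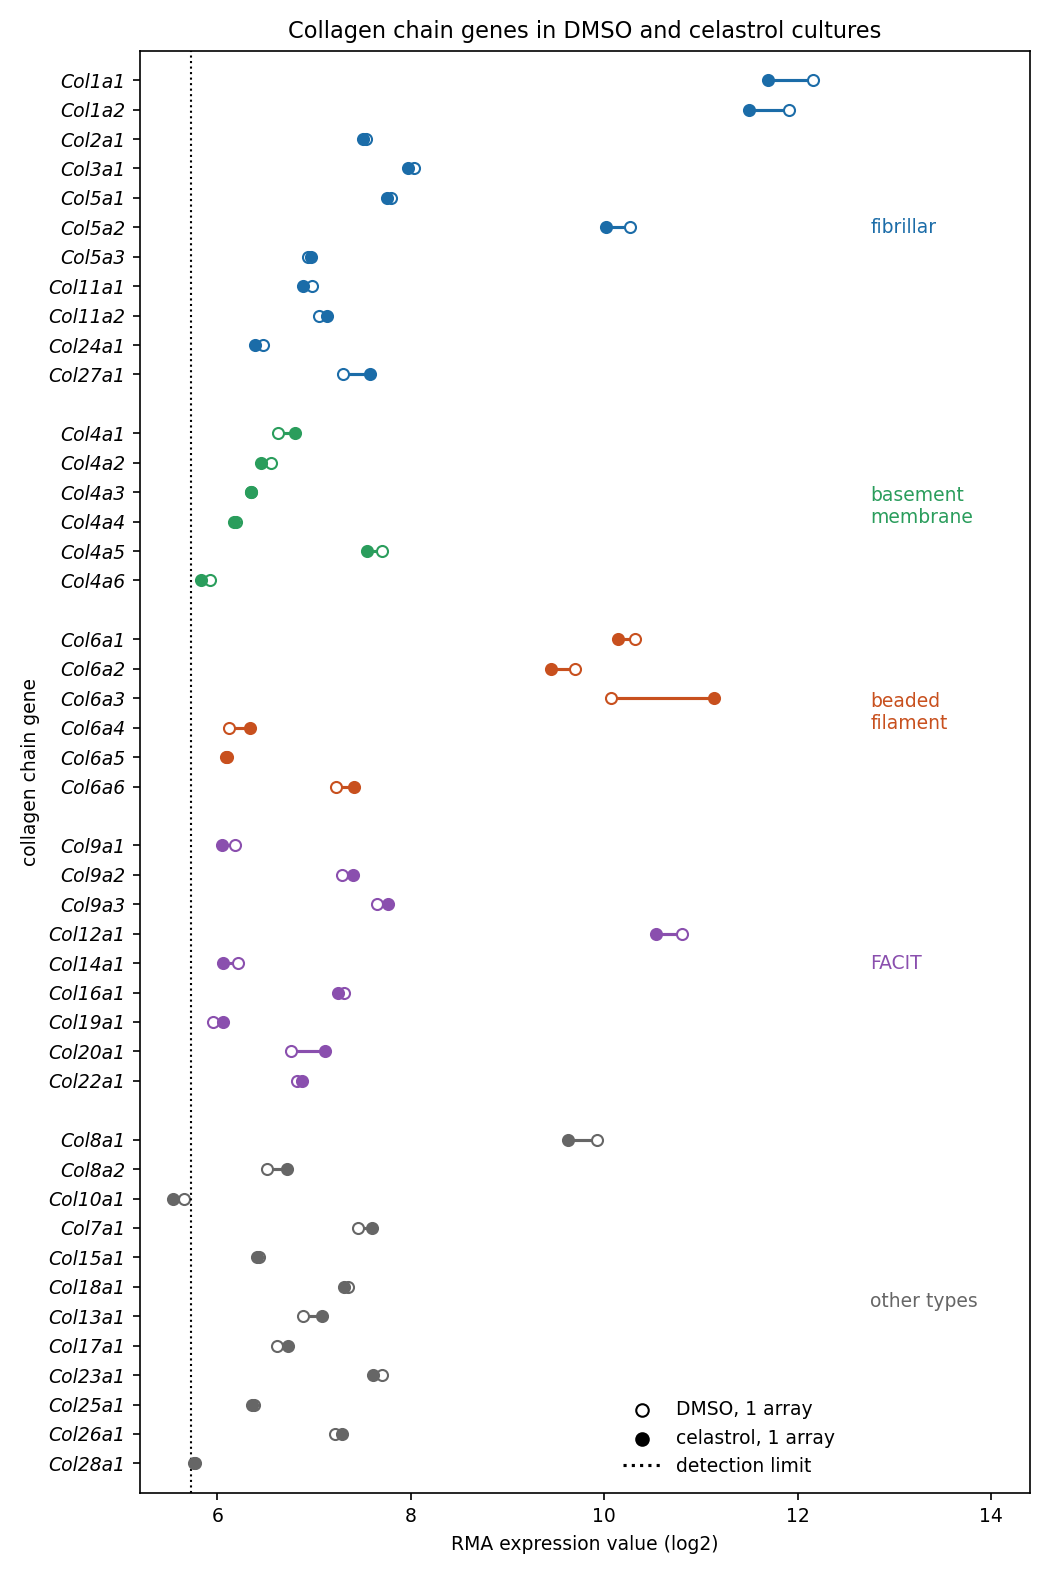
RMA expression values (log2, horizontal axis) of the 44 collagen chain genes, grouped by type, with an open circle for the DMSO array, a filled circle for the celastrol array and a dotted line at the detection limit of 5.73. Col6a3 moves from 10.07 to 11.13, Col1a1 and Col1a2 sit further left with celastrol, and most other genes have circles that nearly touch.

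The fibrillar collagens included the chains with the largest negative differences. Col1a1, which encodes the alpha-1 chain of type I collagen (probe set 10380419), was at 12.16 with DMSO and 11.69 with celastrol, a difference of -0.46 or 1.38-fold lower. Col1a2, its partner in the type I heterotrimer (probe set 10536220), was at 11.92 and 11.50, a difference of -0.42 or 1.33-fold lower. These partners lie on different chromosomes, 11 and 6, and their differences were 0.05 apart. Col5a2, of the type V collagen that helps nucleate fibrils, was at 10.26 and 10.01, 1.19-fold lower. Its partner Col5a1 was at 7.79 and 7.76, and Col5a3 at 6.94 and 6.97. Within type V the difference thus ranged from -0.25 for Col5a2 to 0.03 for Col5a3. Col3a1, which co-assembles with type I in extensible tissues, was at 8.03 and 7.97, a difference of -0.06. It did not share the size of the type I differences.

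The other fibrillar genes lay near 0 or above it. The cartilage collagen Col2a1 was at 7.53 and 7.51, a difference of -0.03. Col11a1 and Col11a2, of the type XI collagen found inside cartilage fibrils, were at 6.98 and 6.88 (-0.10) and at 7.05 and 7.14 (0.08). Col24a1 was at 6.48 and 6.39. Col27a1, a fibrillar collagen of cartilage, was at 7.30 with DMSO and 7.58 with celastrol, the highest fibrillar difference at 0.28 (1.22-fold). Over the 11 fibrillar genes, all detected, 8 were lower and 3 higher, with a median of -0.06. Among all detected genes 51.9% were lower and 48.1% higher, with a median of -0.01.

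Basement membrane chains differed little, but all except Col4a5 were dim, with a mean less than 1 above the detection limit. Col4a1 was at 6.63 with DMSO and 6.80 with celastrol (0.17), and Col4a2, the other chain of the widespread type IV trimer, at 6.55 and 6.45 (-0.10). The pair is transcribed head to head on chromosome 8, and their RefSeq promoter windows, chr8:11312777-11313076 on the minus strand and chr8:11312555-11312854 on the plus strand of GRCm38.p6, overlap by 78 bases. Their differences had opposite signs and both lay inside the receptor range. Col4a3 was at 6.35 in both arrays and Col4a4 at 6.20 and 6.18. These chains belong to the trimer of the mature glomerular basement membrane, with Col4a5, which was at 7.70 and 7.55 (-0.16). Col4a6 was at 5.92 and 5.84, the type IV gene nearest to the limit. In this type 5 of 6 genes were lower, beside 51.9% of all detected genes, but Col4a3 and Col4a4 differed by only -0.001 and -0.02. The median was -0.05 and the range ran from -0.16 to 0.17, so none differed by 0.32 or more.

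The beaded filament type contained the largest positive difference. Col6a3, the longest chain of type VI collagen, which carries the C-terminal domain from which endotrophin is cleaved (probe set 10356520), was at 10.07 with DMSO and 11.13 with celastrol, a difference of 1.07 or 2.09-fold higher. Among detected genes 1.88% were at least 2-fold higher. Col6a1 was at 10.32 and 10.14 (-0.18), and Col6a2 at 9.70 and 9.45 (-0.25). Together with Col6a3 these chains make up the classical type VI trimer, and Col6a1 and Col6a2 were lower where Col6a3 was higher. The difference of Col6a3 exceeded that of Col6a1 by 1.24 and that of Col6a2 by 1.32. Col6a1 and Col6a2 are neighbours on chromosome 10 and were 0.08 apart, while Col6a3 lies on chromosome 1. Only 1 probe set named Col6a3, so its value has no second probe set to set beside it. In the 761 genes that have more than 1 detected probe set, the spread of the log2 difference between probe sets of the same gene had a median of 0.10 and a 90th percentile of 0.51.

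The newer type VI chains, which lie side by side on chromosome 9 and can take the place of the alpha-3 chain, were dimmer. Col6a4 was at 6.13 and 6.34 (0.22), Col6a5 at 6.09 and 6.10 (0.02) and Col6a6 at 7.22 and 7.42 (0.19). The second probe sets of Col6a5 and Col6a6 were below the limit in both arrays, at 5.01 and 5.30 with DMSO, and gave differences of 0.36 and 0.16. All 3 genes lay inside the receptor range. Of the 6 beaded filament genes 4 were higher, beside 48.1% of all detected genes. Their median of 0.10 became 0.02 without Col6a3. The mean of 0.18 rested on Col6a3.

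FACIT genes showed no common direction. Col12a1, a large FACIT of dense connective tissue, was at 10.80 and 10.54, or 1.20-fold lower. Col14a1, its close relative, was at 6.21 and 6.06 (-0.15), and Col16a1 at 7.31 and 7.25 (-0.05). Col9a1, which coats cartilage fibrils as part of type IX, was at 6.18 and 6.05 (-0.13). Its partners Col9a2 (7.29 and 7.40) and Col9a3 (7.65 and 7.76) each had a difference of 0.12. Col20a1 was at 6.76 and 7.11, a difference of 0.35 (1.28-fold), the highest of this type, while Col19a1 (5.96 and 6.06) and Col22a1 (6.83 and 6.88) differed by 0.10 and 0.05. Of 9 FACIT genes 5 were higher and 4 lower, beside 48.1% and 51.9% of all detected genes. Their median was 0.05, with a range from -0.26 to 0.35.

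Set side by side, the medians were -0.06 for fibrillar, -0.05 for basement membrane, 0.10 for beaded filament and 0.05 for FACIT genes, beside -0.02 for all 43 detected collagen genes and -0.01 for all detected genes. The highest and the lowest of the 4 type medians lay 0.17 apart. The types could not be tested against each other with 1 array per group. In each of the 4 types the range over genes was wider than the gap of 0.17 between medians. The range ran from -0.46 to 0.28 in fibrillar genes and from -0.16 to 0.17 in basement membrane genes. It ran from -0.25 to 1.07 in beaded filament genes, where Col6a3 set the upper end, and from -0.26 to 0.35 in FACIT genes.

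The 11 detected genes of the remaining types had a median of -0.01 and 6 were lower, beside 51.9% of all detected genes. Col8a1, a network-forming collagen of vessel walls and the cornea, was at 9.93 and 9.63, or 1.23-fold lower, whereas its relative Col8a2 was at 6.52 and 6.72 (0.20). Col7a1, the anchoring fibril collagen of skin, was at 7.45 and 7.60 (0.14). The multiplexin Col15a1 was at 6.44 and 6.41, and Col18a1, the source of endostatin, at 7.35 and 7.31. Among transmembrane collagens Col13a1 was at 6.88 and 7.08 (0.20), and Col17a1, of hemidesmosomes, at 6.62 and 6.74 (0.12). Col23a1 was at 7.71 and 7.60 (-0.10), and Col25a1 at 6.38 and 6.36 (-0.02). Col26a1 was at 7.21 and 7.29, and Col28a1 at 5.77 and 5.76, just above the limit.

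Direction differed with the brightness of the probe set, a split made after the values were seen. In 8 detected collagen genes the mean of both arrays exceeded 9, and 7 of them were lower (Col1a1, Col1a2, Col5a2, Col6a1, Col6a2, Col8a1 and Col12a1), with Col6a3 the exception. Their median was -0.26. Of the 5046 detected genes with a mean above 9, 54.0% were lower, with a median of -0.03. The differences of the 7 genes ran from -0.46 to -0.18, and 2 of the 8 were lower by 0.32 or more, beside 18.8% of detected genes this bright. In the other 35 collagen genes 18 were lower and 17 higher, with a median of -0.001 and a range from -0.16 to 0.35, beside 50.7% lower among 8856 detected genes of that brightness. How far compression of dim values sets this contrast was not tested.

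**Figure D2:**
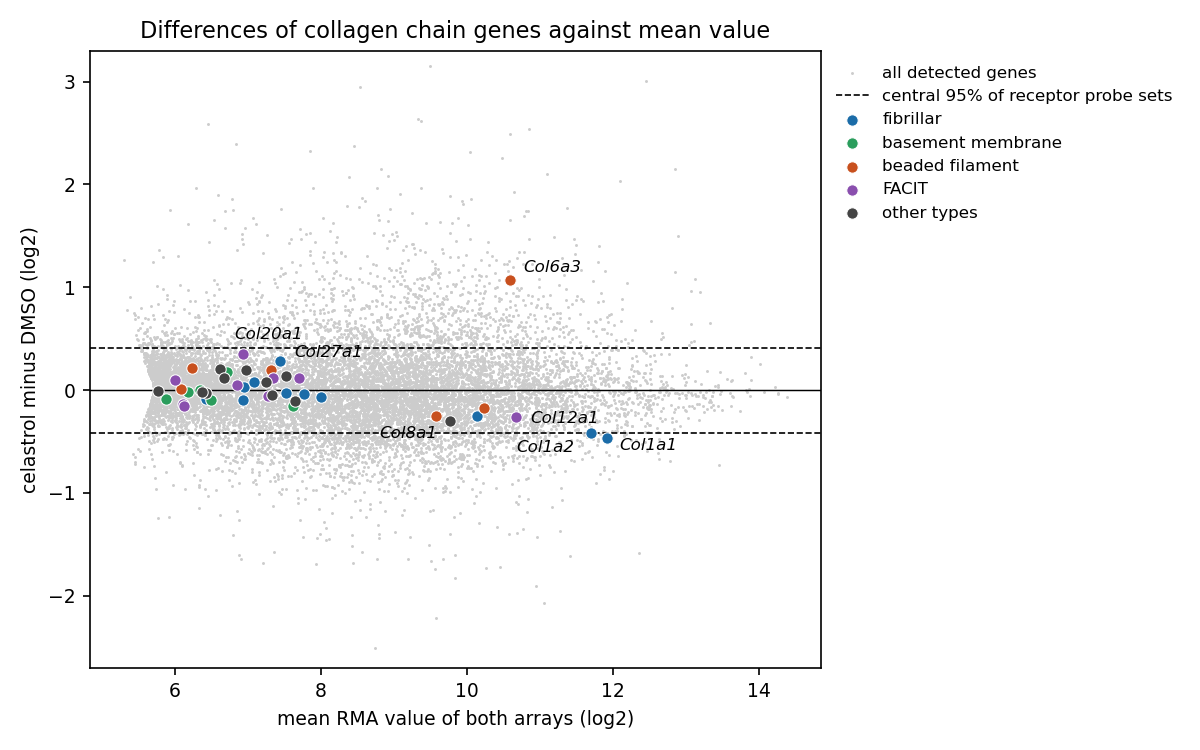
Difference (celastrol minus DMSO, log2, vertical axis) against the mean RMA value of both arrays (log2, horizontal axis) for the 43 detected collagen genes, coloured by type, over all 13902 detected genes in grey, with dashed lines at the central 95% of the receptor probe sets (-0.42 and 0.41). Col6a3 stands above the upper line, Col1a1 lies just under the lower one, and the other 41 genes lie between the lines.

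Some collagen genes are neighbours, and the RefSeq table places 8 pairs next to each other among protein-coding genes. Col3a1 and Col5a2 on chromosome 1 had differences of -0.06 and -0.25, and Col4a5 and Col4a6 on chromosome X had -0.16 and -0.09. Col9a1 and Col19a1 on chromosome 1 had -0.13 and 0.10. All differences in the 8 pairs were inside the receptor range.

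Genes that modify collagen chains went in both directions. Of 15 enzymes and partners for prolyl and lysyl hydroxylation and glycosylation 14 were detected, 5 higher and 9 lower, with a median of -0.12. Among all detected genes 48.1% were higher and 51.9% lower. Plod2, the lysyl hydroxylase of telopeptides, was at 10.25 with DMSO and 11.16 with celastrol, the highest of the list at 1.88-fold. P4ha3, a catalytic subunit of prolyl 4-hydroxylase, was at 8.39 and 7.66, the lowest at 1.65-fold lower. Ppib, the prolyl isomerase cyclophilin B, was at 12.51 and 12.42. Named after their values were seen, the other catalytic subunits P4ha1 (10.48 and 11.20) and P4ha2 (8.41 and 9.26) were 1.64-fold and 1.80-fold higher, and the lysyl hydroxylase Plod1 was 1.43-fold higher. The prolyl 3-hydroxylase P3h2 was 1.54-fold lower, its relatives P3h3 and P3h4 1.39-fold and 1.51-fold lower, and Crtap, the partner of P3h1, 1.41-fold lower. In these subgroups, picked after the values were seen, 2 of 3 prolyl 4-hydroxylase catalytic subunits were higher, beside 48.1% of all detected genes. All 4 P3h genes were lower, beside 51.9%, but P3h1 differed by only -0.14 on the log2 scale, inside the receptor range.

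Folding, export, cleavage and cross-linking genes were mostly lower, beside 51.9% lower among all detected genes. Of 9 detected genes for folding and export 7 were lower, with a median of -0.28. Serpinh1, the collagen chaperone HSP47 and a heat shock gene, was at 11.01 and 11.62, 1.53-fold higher, and was also the brightest of the list. Fkbp14, a prolyl isomerase of the endoplasmic reticulum, was at 8.63 and 7.69, 1.92-fold lower. Of 7 propeptide cleavage genes 5 were lower, with a median of -0.17. They ran from Adamts14, a procollagen N-proteinase (7.05 and 6.51), to Pcolce2 (8.34 and 8.74). Pcolce, the enhancer of the C-proteinase, was at 13.02 and 12.71. Of 4 cross-linking oxidase genes 3 were lower, with a median of -0.33. Loxl4 was at 9.86 and 9.16, 1.62-fold lower, Loxl1 at 10.74 and 10.44, and Loxl3 at 8.39 and 8.52. Lox itself passed the limit through the DMSO array only, at 5.82 and 5.46, so its direction follows from the filter. When the mean of both arrays had to pass, Lox dropped out and the median of the other 3 genes was -0.30. Over these 3 lists and the hydroxylation list together, 34 of 39 genes were detected and 24 were lower, Lox among them. These pooled counts and their median were not computed without Lox. The median was -0.24, beside -0.01 for all detected genes, of which 51.9% were lower. Of the 34, 11.8% (4 genes) were at least 1.5-fold higher, beside 6.19% of all detected genes, and 17.6% (6 genes) at least 1.5-fold lower, beside 4.68%. No probe set named Fkbp10, Adamts2 or Loxl2 alone, and these genes were not analysed here.

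The detected small proteoglycans that bind collagen fibrils all had lower values. This held for 6 of 6 detected genes of 8, beside 51.9% of all detected genes. Their median was -0.68, and over all 8 the median was -0.39. Dcn, Ogn, Aspn and Prelp differed by -0.24, -0.54, -0.83 and -0.83, and Prelp was at 6.69 and 5.86, near the limit with celastrol. Fmod, fibromodulin, which regulates fibril growth and cross-linking, was at 7.06 and 6.08, 1.96-fold lower. Bgn, biglycan, was at 13.17 and 13.11, the smallest difference among the detected genes of the list. Lum and Kera lay under the limit in both arrays. Among 8 detected collagen receptors 4 were higher and 4 lower, beside 48.1% and 51.9% of all detected genes. The receptor median was -0.08. The discoidin domain receptors had opposite signs. Ddr1 was at 9.36 and 8.38, 1.98-fold lower, and Ddr2, the fibroblast form that binds fibrillar collagen, was at 10.98 and 11.57, 1.51-fold higher. Itgb1, the shared integrin beta chain, was at 11.60 and 11.80. Of 5 detected collagen-degrading genes 2 were higher and 3 lower, beside the same shares of all detected genes (48.1% and 51.9%), with a median of -0.09. Mmp13, a collagenase, was at 8.81 and 9.90, 2.13-fold higher. Mmp9, a gelatinase, was at 7.98 and 7.14, 1.79-fold lower, and Mmp2 at 12.51 and 12.38.

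**Figure D3:**
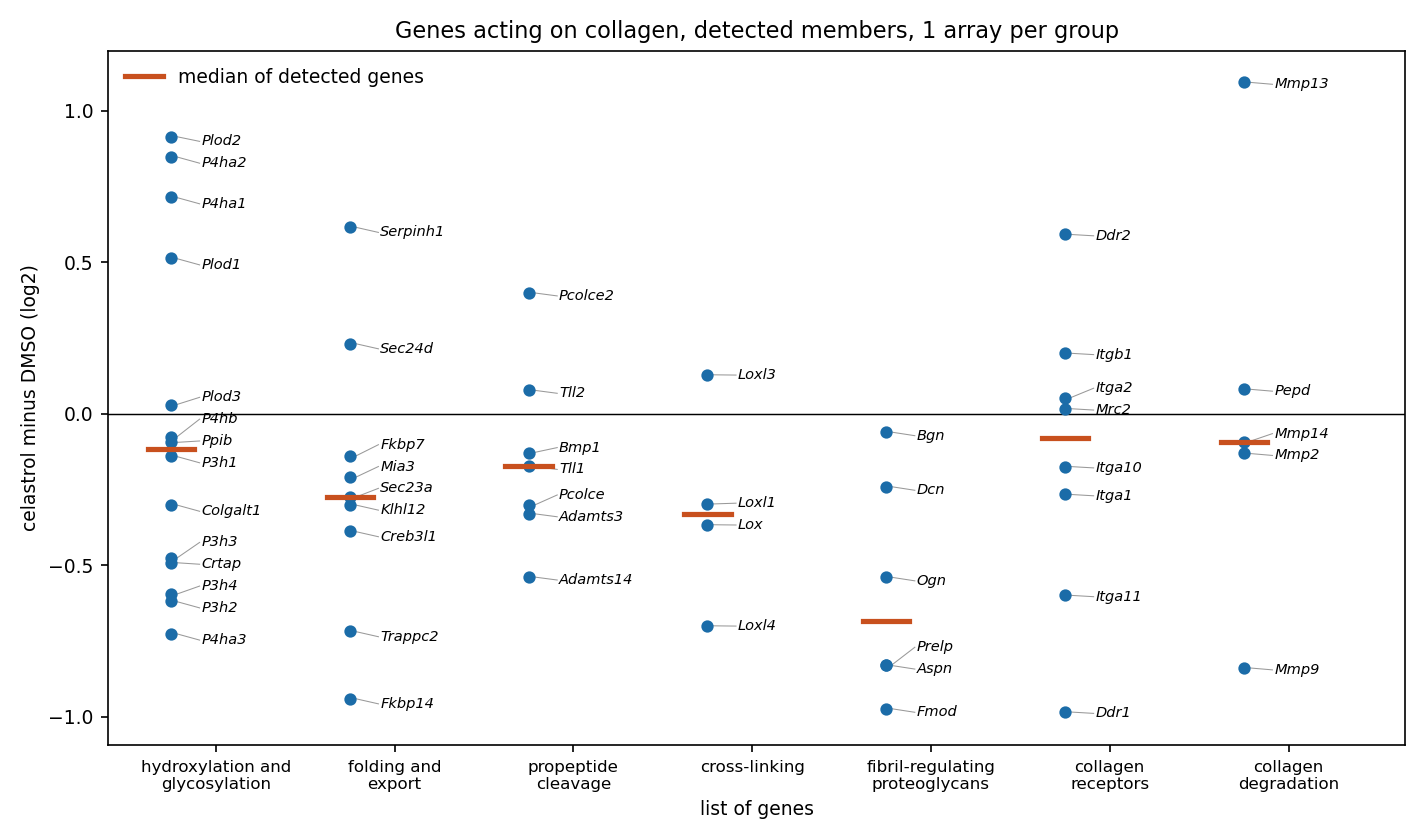
Differences (celastrol minus DMSO, log2, vertical axis) of the detected genes of 7 lists of genes that modify, fold, cut, cross-link, bind or degrade collagen, with 1 dot per gene and an orange bar at each list's median. The proteoglycans lie below 0 throughout, whereas the hydroxylation list runs from -0.73 for P4ha3 to 0.91 for Plod2.

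Fibroblast markers were present in both arrays, with 9 of 10 detected and Vim brightest (13.85 with DMSO and 13.95 with celastrol). They ran in difference from -0.88 for S100a4 (11.14 and 10.26) to 0.48 for Twist1 (8.44 and 8.92), and Fap lay under the limit. For all marker lists the median is given over all measured genes, since dim genes can pass the limit through the array in which they are high, and it was -0.03 here. Of 10 cartilage markers 6 were detected, with Sox9 brightest (10.81 and 11.12) and Cnmd lowest in difference (6.19 and 6.05), while Matn1, Matn3, Hapln1 and Epyc were under the limit in both arrays. That list had a median of 0.01. Of 8 epithelial markers 7 were detected, 3 of them through 1 array only. These 3 were Krt14 (5.97 and 5.66), Krt19 (5.68 and 5.91) and Krt5 (5.67 and 5.89). Krt8 was brightest (6.96 and 6.92), Epcam was under the limit, and the median was 0.05. Of 8 endothelial markers 4 were detected, with Egfl7 brightest and lowest in difference (7.22 and 7.05), Cdh5 above the limit through the celastrol array only (5.62 and 5.77), Pecam1 and Kdr under it, and a median of 0.05. Of 6 measured Schwann and neural markers 4 were detected, from Map2 (8.02 and 7.60) to Nes (8.63 and 8.86) in difference, with a median of 0.19. Of 8 macrophage and leukocyte markers 3 were detected, and the median over all 8 was 0.08. Cd68, also a lysosomal protein, was at 6.86 and 8.33, and Tyrobp passed through the celastrol array only (5.69 and 5.78). The summed level of that list on the unlogged scale was 403 with DMSO and 627 with celastrol, of which Cd68 alone made up 117 and 322. Ptprc, Adgre1, Itgam, Lyz2 and Fcgr1 were under the limit in both arrays. The part of other cell types in the Col6a3 value was not tested.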

How the data were processed

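The authors deposited log2 values from RMA, which corrects background, normalizes probes by quantiles and summarises them per probe set, per the submitters' processing notes. RMA's version, settings and input arrays are not stated there. Scanner files were not used here. Of 35556 probe sets, 21797 named exactly 1 gene in GEO's platform annotation, and only these were used. A gene took the probe set with the highest mean of both arrays, and symbols were updated through Entrez identifiers to a GRCm38.p6 gene table, which held those of 21706 probe sets. Each group is 1 array, so p-values, errors and intervals were not calculated. Both values are given for every detected collagen gene, and for each further list the highest, lowest and brightest gene. Collagen types and lists were chosen with earlier results of these data known. Median and count code was tested on simulated data. Alternatives were other detection limits, probe set rules, normalizations and fold thresholds. The software was statsmodels 0.14.6, pandas 2.3.3 and numpy 2.4.6 under Python 3.11.15.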

Additional observations from a re-analysis of the deposited data

How the results depend on the processing

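Across 7 alternative settings (detection at the median of all probe sets, no detection limit, the mean of both arrays in place of 1 array, the mean of probe sets, quantile normalization, subtraction of a lowess trend or of the median difference), Col6a3 differed by 1.07 to 1.11, Col1a1 by -0.46 to -0.43 and Col1a2 by -0.42 to -0.38. The fibrillar median ran from -0.06 to -0.003, the basement membrane median from -0.08 to -0.04, the beaded filament median from 0.09 to 0.19 and the FACIT median from 0.05 to 0.09. The 1.5-fold counts stayed at 1 higher and 0 lower. A threshold of 0.32 on the log2 scale gave 2 higher and 2 lower, where by construction a lower threshold cannot give fewer genes. Limited to genes with a mean above 9, chosen after seeing the data, the medians were -0.26 over 8 collagen genes, -0.42 over 3 fibrillar genes, -0.18 over 3 beaded filament genes, where the sign turned, and -0.26 for the only FACIT gene. Fewer genes enter these medians by construction. With no detection limit the proteoglycan median was -0.39, as dim genes entered. The mean of its probe sets gave Col6a5 0.19. Signs of differences near 0 changed for Col2a1, Col5a1, Col4a3, Col6a5 and Col28a1. No paired analysis was possible because each group is 1 array. The number of arrays limits the precision.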
